A study of Mus musculus with 10 samples.

Results

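The 10 genes described here, Gucy1a1, Gucy1b1, Pde5a, Pde3a, Prkg1, Ptgis, Ptgir, Ace, Agtr1a and Npr3, encode enzymes and receptors that set vascular tone through cyclic GMP, prostacyclin, angiotensin and the natriuretic peptides. They were chosen by name, with earlier results of these data known, and all 10 were found among the 54532 genes of the deposited table. In the IncPBF lungs, Ptgis and Agtr1a were at less than 50% of the sham level, Ace and Npr3 were also lower, and Pde5a and Ptgir were higher. Gucy1a1, Gucy1b1, Prkg1 and Pde3a did not pass the test.

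Nitric oxide activates soluble guanylyl cyclase in vascular smooth muscle, and the cyclic GMP made there relaxes the muscle through protein kinase G until phosphodiesterases break it down. Prostacyclin, made by prostacyclin synthase, acts through its receptor and cyclic AMP to relax the vessel and to restrain platelets. In the lung, endothelial angiotensin-converting enzyme makes angiotensin II, which constricts vessels through the type 1 receptor, and natriuretic peptides signal through cyclases of their own and are cleared by a receptor that has no cyclase.

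The study compared wild-type (WT) C57/BL6 mice with increased pulmonary blood flow (IncPBF) with sham mice. At postnatal day 7 (P7) the IncPBF pups received a fistula between the abdominal aorta and the inferior vena cava, while sham pups had the same laparotomy and anesthesia without the puncture, and the labels name no further treatment of either group. Whole lungs were taken at P14 and profiled by bulk RNA-sequencing, with 5 lungs in each group. Pups of either sex entered the study. The labels give neither sex nor litter and do not state that the lungs of a group came from separate animals, so p-values measure the spread between these samples.

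Levels are in FPKM, sequenced fragments per kilobase of gene length, scaled to library size, so that levels of different genes can be compared. The fragments on genes recovered from these values numbered 16103423 to 20318525 per lung in the IncPBF group and 18171494 to 19400575 in the sham group. The 10 genes had 80 to 22787 fragments per lung. Genes with a mean of at least 0.5 FPKM (15388, among them all 10) were tested with limma on log2(FPKM + 0.1), and a gene was called at a Benjamini-Hochberg adjusted p under 0.05 over all genes tested. Fold changes are IncPBF minus sham on that scale, so they understate the change of low genes. Of all genes tested, 32.3% were called.

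The groups also differed in sex-linked RNA. Xist, transcribed from the inactive X chromosome, was at 52.4 to 66.5 FPKM in IncPBF lungs 2 to 5, at 0.0144 FPKM in IncPBF lung 1 and at 0.00640 to 0.0770 FPKM in the sham lungs. Y-linked Ddx3y was at 18.6 FPKM in IncPBF lung 1, at 0 to 0.00926 FPKM in the 4 others of that group and at 21.8 to 24.6 FPKM in sham. By these RNAs, IncPBF lungs 2 to 5 had the female pattern, and IncPBF lung 1 and all sham lungs had the male pattern. Group and sex cannot be told apart in IncPBF lungs 2 to 5. IncPBF lung 1 is the only IncPBF lung without Xist RNA, and its values are therefore read against those of the sham lungs throughout. Lung tissue was present in all libraries by its markers, and Ager, a marker of alveolar type 1 cells, averaged 853 ± 114 FPKM in sham lungs and 584 ± 11.0 FPKM in IncPBF lungs (SD, n = 5 each).

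In total, 6 of the 10 genes were called, against the 32.3% of all genes tested. The genes were chosen with earlier results of these data known, so the shares over all genes serve for description only. Higher in IncPBF lungs were 2 of 10, with 16.1% of all genes called higher, and 4 of 10 were lower, with 16.2% of all genes called lower. In the same 6 genes the 5 IncPBF lungs and the 5 sham lungs did not overlap, which held for 23.2% of all genes. The median size of the log2 fold change, without its sign, was 0.56 over the 10 genes and 0.20 over all genes tested, and the median with its sign was -0.18 over the 10 genes and 0.01 over all. IncPBF lung 1 lay beyond the sham range in 7 of the 10 genes, namely the 6 called genes and Pde3a. This was the case for 51.8% of all genes tested.

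**Figure D1:**
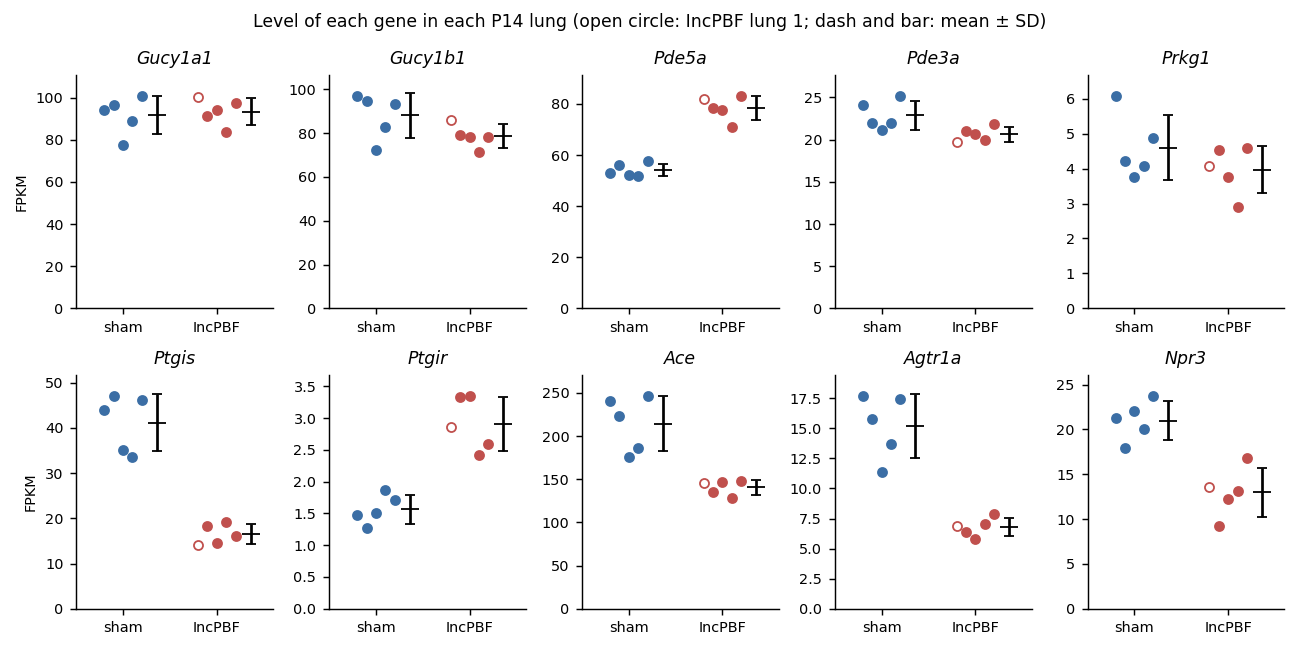
Level of each of the 10 genes in FPKM (vertical axes, each starting at 0) in the 5 sham and 5 IncPBF lungs, where points are lungs, the open circle is IncPBF lung 1, and the dash and bar are mean and SD. The groups stand apart in Pde5a, Ptgis, Ptgir, Ace, Agtr1a and Npr3 and overlap in Gucy1a1, Gucy1b1, Pde3a and Prkg1.

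Gucy1a1 and Gucy1b1 encode the alpha and beta subunits of soluble guanylyl cyclase, the receptor of nitric oxide. Both lie on the minus strand of chromosome 3 (GRCm38), Gucy1a1 (ENSMUSG00000033910) at 82092427 to 82145789 and Gucy1b1 (ENSMUSG00000028005) at 82032006 to 82074689, with 17737 bases between them. Gucy1a1 was at 94.0, 96.6, 77.4, 88.7 and 101 FPKM in sham lungs 1 to 5 and at 100, 91.1, 94.1, 83.7 and 97.5 FPKM in IncPBF lungs 1 to 5. The groups overlapped along most of their range, with means of 91.5 ± 9.02 FPKM (SD, n = 5) in sham and 93.4 ± 6.42 FPKM (SD, n = 5) in IncPBF. The log2 fold change of Gucy1a1 was 0.03 (standard error 0.08, 95% interval -0.14 to 0.20, limma adjusted p = 0.785).

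Gucy1b1 was at 97.0, 94.8, 72.4, 83.0 and 93.1 FPKM in sham lungs 1 to 5 and at 86.2, 79.2, 78.4, 71.2 and 78.3 FPKM in IncPBF lungs 1 to 5. Sham lungs 1, 2 and 5 lay above every IncPBF lung, while sham lungs 3 and 4 lay within the IncPBF range. The log2 fold change was -0.16 (standard error 0.08, 95% interval -0.34 to 0.03), which did not pass the test (limma adjusted p = 0.183). Sham lung 3 was the lowest sham lung in both subunits and in 6 of the 10 genes, and without it Gucy1b1 was at -0.23 and called (limma adjusted p = 0.0278). With an equal total per lung Gucy1b1 was only at -0.077 (limma adjusted p = 0.437), and limma-voom on the recovered fragments also gave -0.077 (limma-voom adjusted p = 0.427).

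The ratio of Gucy1a1 to Gucy1b1 separated the groups, which neither subunit did alone. It was 1.04 ± 0.0476 (SD, n = 5) in sham lungs, ranging from 0.969 to 1.08, and 1.19 ± 0.0368 (SD, n = 5) in IncPBF lungs, ranging from 1.15 to 1.24. The ranges did not overlap, and the log2 ratio, taken like the others of FPKM + 0.1, was 0.19 higher in IncPBF (exact permutation test, two-sided, p = 0.00794, adjusted over 5 ratios 0.0132). IncPBF lung 1, at 1.16, was also above all sham lungs.

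Prkg1 (ENSMUSG00000052920, chromosome 19, 30567551 to 31765033, minus strand) encodes protein kinase G type I, which carries the cyclic GMP signal in smooth muscle. It was at 6.08, 4.21, 3.75, 4.08 and 4.87 FPKM in sham lungs 1 to 5 and at 4.08, 4.52, 3.76, 2.91 and 4.58 FPKM in IncPBF lungs 1 to 5. The groups overlapped, with 1 high sham lung and 1 low IncPBF lung at the ends. The log2 fold change of Prkg1 was -0.20 (standard error 0.15, 95% interval -0.53 to 0.12, limma adjusted p = 0.323).

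Pde5a (ENSMUSG00000053965, chromosome 3, 122728947 to 122859374, plus strand) encodes the cyclic GMP-specific phosphodiesterase that sildenafil inhibits. It was at 53.0, 56.1, 52.2, 52.0 and 57.5 FPKM in sham lungs 1 to 5 and at 81.8, 78.5, 77.4, 70.8 and 83.2 FPKM in IncPBF lungs 1 to 5. Every IncPBF lung was above every sham lung, and the spread within groups was small, with means of 54.2 ± 2.50 FPKM (SD, n = 5) and 78.4 ± 4.82 FPKM (SD, n = 5). Pde5a rose 1.44-fold, a log2 fold change of 0.53 (standard error 0.06, limma adjusted p = 7.35e-05).

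Against Gucy1b1 in the same lung, Pde5a was at a ratio of 0.621 ± 0.0641 (SD, n = 5) in sham and 0.997 ± 0.0406 (SD, n = 5) in IncPBF. The sham lungs ran from 0.547 to 0.721 and the IncPBF lungs from 0.950 to 1.06, with IncPBF lung 1 the lowest of its group. Pde5a RNA thus stood at about the level of Gucy1b1 RNA in IncPBF lungs and below it in sham lungs. The log2 ratio was 0.69 higher in IncPBF (exact permutation test, two-sided, p = 0.00794, adjusted over 5 ratios 0.0132). Pde5a alone gave the same exact p, so the ratio is not a result independent of Pde5a.

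Pde3a (ENSMUSG00000041741, chromosome 6, 141249269 to 141507448, plus strand) encodes a phosphodiesterase that breaks down cyclic AMP and is inhibited by cyclic GMP. It was at 24.2, 22.0, 21.1, 22.0 and 25.2 FPKM in sham lungs 1 to 5 and at 19.7, 21.0, 20.6, 20.0 and 21.9 FPKM in IncPBF lungs 1 to 5. Of the IncPBF lungs, only lung 5 lay above the lowest sham lung. The log2 fold change of Pde3a was -0.15 (standard error 0.06, 95% interval -0.27 to -0.02), with an exact two-sided permutation p of 0.0159 for this gene alone and a limma adjusted p of 0.0770 over all genes. Without sham lung 3, the lowest of its group, it was at -0.17 and called (limma adjusted p = 0.0425). With an equal total per lung Pde3a was only at -0.067 (limma adjusted p = 0.297), and limma-voom on the recovered fragments also gave -0.067 (limma-voom adjusted p = 0.340).

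Ptgis (ENSMUSG00000017969, chromosome 2, 167191805 to 167240604, minus strand) encodes prostacyclin synthase, which makes prostacyclin from prostaglandin H. It was at 44.0, 47.0, 35.1, 33.5 and 46.2 FPKM in sham lungs 1 to 5 and at 14.1, 18.3, 14.6, 19.2 and 16.2 FPKM in IncPBF lungs 1 to 5. The highest IncPBF lung was well below the lowest sham lung, and IncPBF lung 1 was the lowest of all. The mean was 41.2 ± 6.39 FPKM (SD, n = 5) in sham and 16.5 ± 2.21 FPKM (SD, n = 5) in IncPBF, or 40.0% of the sham mean. Ptgis fell by 1.31 on the log2 scale (standard error 0.12, limma adjusted p = 3.08e-05) and held rank 114 by p among the 15388 genes tested.

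Ptgir (ENSMUSG00000043017, chromosome 7, 16906490 to 16910905, plus strand) encodes the prostacyclin receptor, which raises cyclic AMP. It was the lowest of the 10 genes, at 1.47, 1.27, 1.51, 1.87 and 1.71 FPKM in sham lungs 1 to 5 and at 2.85, 3.33, 3.34, 2.42 and 2.59 FPKM in IncPBF lungs 1 to 5. Every IncPBF lung was above every sham lung. These levels rested on 80 to 119 fragments per sham lung and 139 to 208 per IncPBF lung. Ptgir rose 1.80-fold, a log2 fold change of 0.85 (standard error 0.12, limma adjusted p = 0.000566). RNA of the synthase and RNA of the receptor of prostacyclin thus moved in opposite directions.

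Thromboxane synthase, encoded by Tbxas1, makes thromboxane, a constrictor, from the same precursor as prostacyclin. Its mean was 0.636 ± 0.0764 FPKM in sham and 0.694 ± 0.195 FPKM in IncPBF (SD, n = 5 each, limma adjusted p = 0.812). The ratio of Ptgis to Tbxas1 was 47.3 to 76.0 in sham lungs and 15.4 to 44.5 in IncPBF lungs. The ranges came close but did not overlap, and the log2 ratio was -1.39 (exact permutation test, two-sided, p = 0.00794, adjusted over 5 ratios 0.0132). Ptgis alone gave the same exact p, so this ratio too is not a result independent of its first gene. IncPBF lung 1 had the lowest ratio.

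Promoter windows of 300 bases, from 250 before to 50 after a RefSeq start (GRCm38.p6), were in the reference table for 7 of the 10 genes, all but Ptgis, Agtr1a and Pde3a. Those of both genes that rose are printed because they share this direction, and shared regulation was not tested. Capitals mark the GC box, GGGCGG on either strand, a letter pattern that 35.7% of all 32851 promoters in the table hold. Pde5a has 1 GC box, whose first base is at -82 from the start, in a window of 66.3% G and C, and Ptgir has boxes at -76 and -13 in a window of 62.0%. The deposited Pde5a gene begins at 122728947, before the RefSeq start used. Most of the Pde5a window, with its GC box, thus lies within the gene as deposited. The median G and C content of all windows was 52.7%.
Pde5a, chr3:122728908-122729207, plus strand: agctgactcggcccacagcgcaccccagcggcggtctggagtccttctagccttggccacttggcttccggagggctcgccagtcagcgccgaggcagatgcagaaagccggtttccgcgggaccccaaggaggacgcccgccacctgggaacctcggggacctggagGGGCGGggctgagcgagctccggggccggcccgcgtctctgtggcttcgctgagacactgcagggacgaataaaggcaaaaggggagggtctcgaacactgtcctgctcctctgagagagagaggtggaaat
Ptgir, chr7:16906240-16906539, plus strand: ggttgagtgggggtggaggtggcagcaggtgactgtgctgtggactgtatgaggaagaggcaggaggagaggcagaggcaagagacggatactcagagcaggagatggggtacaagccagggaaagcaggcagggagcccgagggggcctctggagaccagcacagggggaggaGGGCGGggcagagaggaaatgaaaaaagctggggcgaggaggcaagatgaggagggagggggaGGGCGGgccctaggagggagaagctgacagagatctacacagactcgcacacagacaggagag

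Ace (ENSMUSG00000020681, chromosome 11, 105967945 to 105989964, plus strand) encodes angiotensin-converting enzyme, which makes angiotensin II, breaks down bradykinin and is abundant on lung endothelium. It was the highest of the 10 genes, at 240, 223, 175, 186 and 246 FPKM in sham lungs 1 to 5 and at 146, 135, 147, 128 and 148 FPKM in IncPBF lungs 1 to 5. Every IncPBF lung was below every sham lung, and the sham lungs spread more widely, with a mean of 214 ± 31.9 FPKM (SD, n = 5) against 141 ± 8.54 FPKM (SD, n = 5). Ace fell by 0.59 on the log2 scale (standard error 0.10, limma adjusted p = 0.00120), to 65.7% of the sham mean.

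Agtr1a (ENSMUSG00000049115, chromosome 13, 30336441 to 30382867, plus strand) encodes the main angiotensin II type 1 receptor of the mouse. It was at 17.7, 15.7, 11.3, 13.7 and 17.4 FPKM in sham lungs 1 to 5 and at 6.87, 6.42, 5.81, 7.05 and 7.90 FPKM in IncPBF lungs 1 to 5. Every IncPBF lung was below every sham lung. The mean was 15.2 ± 2.66 FPKM (SD, n = 5) in sham and 6.81 ± 0.776 FPKM (SD, n = 5) in IncPBF, or 44.9% of the sham mean. Agtr1a fell by 1.13 on the log2 scale (standard error 0.12, limma adjusted p = 9.02e-05). RNA of the converting enzyme and RNA of the receptor of angiotensin II thus fell together.

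Npr3 (ENSMUSG00000022206, chromosome 15, 11839896 to 11907287, minus strand) encodes the clearance receptor that takes up natriuretic peptides. It was at 21.3, 17.9, 22.0, 20.0 and 23.7 FPKM in sham lungs 1 to 5 and at 13.6, 9.27, 12.2, 13.1 and 16.8 FPKM in IncPBF lungs 1 to 5. The groups did not overlap, but IncPBF lung 5 came near the lowest sham lung. Npr3 fell by 0.71 on the log2 scale (standard error 0.13, limma adjusted p = 0.00249), with means of 21.0 ± 2.18 FPKM (SD, n = 5) in sham and 13.0 ± 2.69 FPKM (SD, n = 5) in IncPBF.

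Npr1 encodes the cyclase receptor of the atrial and B-type peptides, which are also cleared by Npr3. It fell by 0.39 on the log2 scale (standard error 0.06, limma adjusted p = 0.000606), from 34.2 ± 2.05 to 26.0 ± 1.59 FPKM (SD, n = 5 each). The ratio of Npr3 to Npr1 was 0.587, 0.515, 0.695, 0.617 and 0.664 in sham lungs 1 to 5 and 0.504, 0.376, 0.432, 0.533 and 0.654 in IncPBF lungs 1 to 5, and the groups overlapped. Its log2 difference of -0.32 did not pass (exact permutation test, two-sided, p = 0.0794, adjusted over 5 ratios 0.0794), except without IncPBF lung 5, where it was -0.42 (adjusted exact permutation p = 0.0238).

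The promoter windows of Ace and Npr3 are printed because both genes fell, and shared regulation was not tested. Ptgis and Agtr1a also fell but had no window. Another Ace window, at 105974939 to 105975238, held none of the letter patterns searched and is not printed. In Ace, capitals mark 4 GC boxes, at -140, -136, -75 and -18, of which the first pair share bases, and the letters TATAAA on the reverse strand at -31, a pattern that 13.6% of all promoters hold. In Npr3, capitals mark a cyclic AMP response element half-site, TGACG, at -50, held by 20.8% of all promoters, and a glucocorticoid receptor half-site, TGTTCT, on the reverse strand at -31, held by 19.0%. The Ace window has 69.7% G and C and the Npr3 window 39.0%. The Npr3 window lies wholly upstream of the gene's first base in the deposited table, since the RefSeq start is further out.
Ace, chr11:105967698-105967997, plus strand: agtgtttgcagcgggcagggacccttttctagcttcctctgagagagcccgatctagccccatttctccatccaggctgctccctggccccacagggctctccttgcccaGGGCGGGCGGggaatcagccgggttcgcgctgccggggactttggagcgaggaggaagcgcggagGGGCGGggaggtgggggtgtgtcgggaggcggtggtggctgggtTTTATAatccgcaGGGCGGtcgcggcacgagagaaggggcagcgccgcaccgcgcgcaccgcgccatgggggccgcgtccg
Npr3, chr15:11907322-11907621, minus strand: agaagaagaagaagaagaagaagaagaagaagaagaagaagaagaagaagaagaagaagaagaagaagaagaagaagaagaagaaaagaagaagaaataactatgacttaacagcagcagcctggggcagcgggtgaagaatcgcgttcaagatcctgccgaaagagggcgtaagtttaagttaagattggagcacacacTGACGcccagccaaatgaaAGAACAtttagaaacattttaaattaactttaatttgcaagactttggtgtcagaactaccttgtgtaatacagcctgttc

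None of the 10 windows found for the 7 genes held a CArG box, the element bound by serum response factor (1.63% of all promoters), or the E-box CACGTG (7.15%). A match of letters is a description of the sequence and not of binding.

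**Figure D2:**
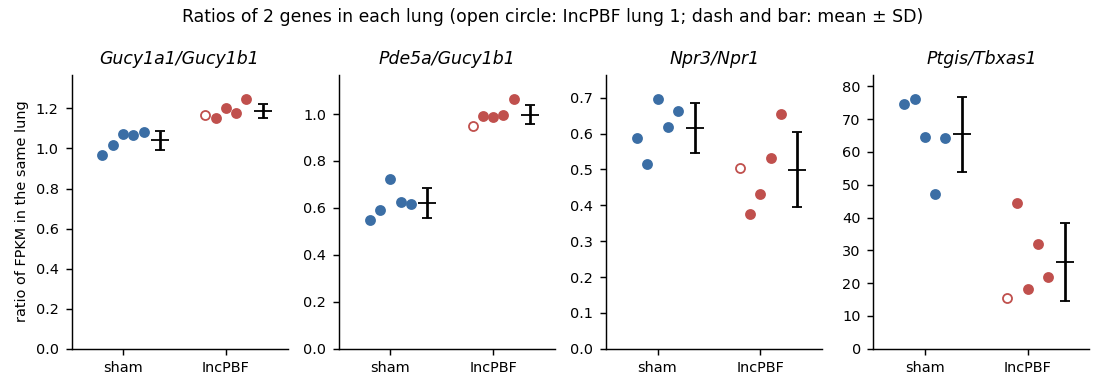
Ratio of the FPKM of 2 genes in the same lung (vertical axes, each starting at 0), where points are lungs, the open circle is IncPBF lung 1, and the dash and bar are mean and SD. Gucy1a1/Gucy1b1 and Pde5a/Gucy1b1 stand higher in IncPBF without overlap and Ptgis/Tbxas1 stands lower without overlap, and Npr3/Npr1 overlaps.

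In each of the 6 called genes, the exact two-sided permutation p was 0.00794, the smallest that the 252 assignments of 5 lungs of 10 can give. With log2 Xist as a covariate, 3 of the 6 were called, against 4.82% of all genes in that fit. Ptgis was at -1.49 (limma adjusted p = 0.00451), Pde5a at 0.60 (limma adjusted p = 0.00987) and Agtr1a at -1.07 (limma adjusted p = 0.0256). The 3 others kept their sign but missed the threshold, with Ptgir at 0.83 (limma adjusted p = 0.0637), Ace at -0.51 (limma adjusted p = 0.130) and Npr3 at -0.62 (limma adjusted p = 0.173). All 6 had an unadjusted limma p under 0.05 in this fit, as did 20.6% of all genes.

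When IncPBF lung 1 alone was set against the 5 sham lungs, all without Xist RNA, 1 of the 10 genes was called, against 1% of all genes. It was Ptgis, at -1.52 (limma adjusted p = 0.0310), with the single IncPBF lung assumed to vary as the sham lungs do. Pde5a was at 0.60 (limma adjusted p = 0.0573), Agtr1a at -1.11 (limma adjusted p = 0.0900), Npr3 at -0.62 (limma adjusted p = 0.120), Ptgir at 0.84 (limma adjusted p = 0.152) and Ace at -0.54 (limma adjusted p = 0.271). These differences had the same sign as those of all lungs, and the same 6 genes had an unadjusted limma p under 0.05, against 16.6% of all genes. Gucy1b1, at -0.16 in all lungs, was at -0.02 here and at -0.0030 with the covariate.

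**Figure D3:**
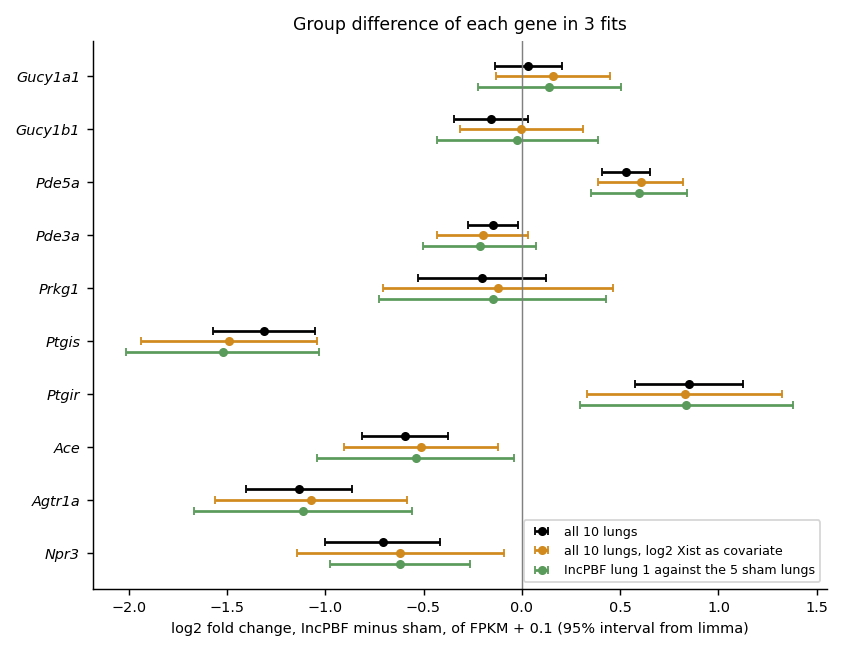
Log2 fold change of each gene, IncPBF minus sham, of FPKM + 0.1 (horizontal axis) with its 95% interval from limma in all 10 lungs (black), with log2 Xist as a covariate (orange) and with IncPBF lung 1 against the 5 sham lungs (green). The orange and green fits are not independent, since both rest largely on IncPBF lung 1. The intervals of Pde5a, Ptgis, Ptgir, Ace, Agtr1a and Npr3 leave out 0 in each fit, though some of these differences miss the adjusted threshold, and the signs hold.

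Within groups the lungs kept some order across genes. IncPBF lung 4 was the lowest of its group in 6 genes (Gucy1a1, Gucy1b1, Pde5a, Prkg1, Ptgir and Ace) and IncPBF lung 5 the highest in 6. Among sham lungs, lung 3 was the lowest in 6 genes and lung 5 the highest in 5. By mean level per length, the sham order from the top was Ace, Gucy1a1, Gucy1b1, Pde5a, Ptgis, Pde3a, Npr3, Agtr1a, Prkg1 and Ptgir. The ranges of Gucy1a1 and Gucy1b1 overlapped, as did those of Pde3a and Npr3, while the other neighbours stood apart. In IncPBF lungs, Ptgis stood below Pde3a and its range overlapped that of Npr3, Gucy1b1 overlapped both Gucy1a1 and Pde5a, and Prkg1 overlapped Ptgir.

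Other genes of the same pathways moved in both directions. Of 71 listed symbols other than the 10, 70 were found in the deposited data, since Irag1 and Mrvi1 name the same gene. Of these, 50 passed the filter, and their median log2 fold change was 0.01. Among the 50, 13 rose and 12 fell, or 50% called against 32.3% of all genes. The lists were also chosen with earlier results of these data known, so this share is a description. With log2 Xist as a covariate 3 of the 50, or 6%, were called, near the 4.82% of all genes in that fit, namely Prkg2 at -1.50 (limma adjusted p = 0.0109), Arg2 at -1.47 (limma adjusted p = 0.0462) and Ece1.

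In the nitric oxide and cyclic GMP list, 22 of the 27 genes found were tested, with 7 higher, 2 lower and a median log2 fold change of -0.01. Nos3, which encodes the endothelial nitric oxide synthase, was at 8.99 ± 0.780 FPKM in sham and 8.49 ± 0.831 FPKM in IncPBF (SD, n = 5 each, limma adjusted p = 0.461). The largest fall was in Prkg2, which encodes protein kinase G type II, at 3.85 to 6.21 FPKM in sham lungs and 1.28 to 1.94 FPKM in IncPBF lungs. It fell by 1.59 on the log2 scale (limma adjusted p = 2.63e-05), while Prkg1 was not called. Mrvi1, whose product is a kinase G substrate at the calcium stores, rose by 1.02 (limma adjusted p = 0.000569). Of the arginases, which compete with nitric oxide synthase for arginine, Arg2 fell by 1.16 (limma adjusted p = 0.00201). Arg1 was at 0.67 with overlapping groups (limma adjusted p = 0.0489), and this call was lost in 7 of the 10 fits with a lung left out, in all but those without IncPBF lung 1, IncPBF lung 4 or sham lung 4 (limma adjusted p up to 0.112).

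In the natriuretic peptide list, 5 of 10 genes were tested, and 4 of these fell, with a median of -0.39. Besides Npr3 and Npr1, Mme, which encodes the peptide-degrading neprilysin, fell by 0.45 (limma adjusted p = 0.00466), and Npr2, the gene of the C-type peptide receptor, fell by 0.28 (limma adjusted p = 0.00234). RNA of the ligands was scarce, with 0 to 3 fragments per lung for Nppa, 0 to 1 for Nppb and 0 to 5 for Nppc, which leaves no group comparison. A count of 0 allows up to 3 fragments, by counting error only.

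In the prostanoid list, 18 of 22 genes were tested, with 4 higher, 4 lower and a median of 0.08. The cyclooxygenases, which make the precursor of all prostanoids, were not called, with Ptgs1 at 0.08 (95% interval -0.11 to 0.27, limma adjusted p = 0.509) and Ptgs2 at 0.01 (95% interval -0.60 to 0.62, limma adjusted p = 0.982). Higher were Ptger3, which encodes a prostaglandin E receptor, at 1.12 (limma adjusted p = 0.000561), and Ptges, which encodes a prostaglandin E synthase, at 0.63 (limma adjusted p = 0.00306), with Ptges3 at 0.40 (limma adjusted p = 0.0111). Lower were Ptgfr, the prostaglandin F receptor gene, at -0.94 (limma adjusted p = 0.00864), and Slco2a1, which encodes the prostaglandin transporter, at -0.77 (limma adjusted p = 0.000250), with Hpgd, the gene of a prostaglandin-degrading enzyme, at -0.51 (limma adjusted p = 0.00266).

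In the renin-angiotensin list, 10 of 14 genes were tested, with 4 higher, 4 lower and a median of 0.16. Agt, which encodes the precursor angiotensinogen, was at 12.7 to 30.8 FPKM in sham lungs and 45.3 to 57.5 FPKM in IncPBF lungs. It rose by 1.16 on the log2 scale (limma adjusted p = 0.00190), opposite to Ace and Agtr1a. Cma1, the gene of a mast cell chymase, rose by 1.41 (limma adjusted p = 0.00448), but on 6 to 11 fragments per sham lung and 11 to 47 per IncPBF lung. Agtr1b, the second type 1 receptor gene of the mouse, rose by 1.21 (limma adjusted p = 0.0126), but on 4 to 20 fragments per sham lung and 26 to 34 per IncPBF lung. Agtr1a and Agtr1b are close paralogs, and how fragments that match both were counted is not given in the sources used here. Lnpep, an aminopeptidase gene, fell by 0.46 (limma adjusted p = 0.0107), and Ren1 had 0 to 1 fragments per lung. The remaining calls were Enpep, an aminopeptidase gene, at 0.42 (limma adjusted p = 0.00223), and Agtrap, whose product binds the type 1 receptor, at -0.40 (limma adjusted p = 0.00122).

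Cell type markers moved as well, and in bulk tissue fewer cells of a type and less RNA per cell cannot be told apart. Of 10 smooth muscle markers 6 rose and 0 fell, and their summed level was 142 to 278 FPKM in sham lungs and 349 to 653 FPKM in IncPBF lungs, with IncPBF lung 1 at 349. Sums weigh genes by level, and Acta2 alone gave 213 of the 349 FPKM in IncPBF lung 1. Acta2 and Myh11, smooth muscle actin and myosin genes, rose by 1.57 (limma adjusted p = 0.000783) and 0.73 (limma adjusted p = 0.00665), whereas with log2 Xist as a covariate none of the 10 was called and 1 had an unadjusted limma p under 0.05. Of 12 endothelial markers 7 fell and 1 rose, with sums of 1395 to 1762 FPKM in sham and 1299 to 1404 FPKM in IncPBF. Among them, Pecam1 and Cdh5, which encode endothelial adhesion proteins, were at -0.37 (limma adjusted p = 0.00405) and -0.44 (limma adjusted p = 0.00699). With log2 Xist as a covariate 1 of the 12 was called, Ptprb at -0.73 (limma adjusted p = 0.0464), while Pecam1 and Cdh5 were not (limma adjusted p = 0.177 and 0.226).

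Of 10 pericyte markers 3 rose and 2 fell, and their sums of 339 to 411 FPKM in sham and 386 to 427 FPKM in IncPBF overlapped. Pdgfrb and Cspg4 were at -0.09 (limma adjusted p = 0.497) and -0.16 (limma adjusted p = 0.169). Of 10 fibroblast markers 3 were called higher, namely Wnt2 and the collagen genes Col1a1 and Col1a2, and Pdgfra, the gene of a growth factor receptor, was called lower, with sums of 871 to 1066 FPKM in sham and 925 to 1105 FPKM in IncPBF. Pdgfra fell by 1.36 on the log2 scale (limma adjusted p = 9.01e-05), from 58.1 ± 12.4 to 22.4 ± 3.42 FPKM (SD, n = 5 each). It and Wnt2 were also called with log2 Xist as a covariate (limma adjusted p = 0.0350 and 0.0272), whereas Col1a1 and Col1a2 were not (limma adjusted p = 0.782 and 0.429), and the Col1a1 call was lost in 6 of the 10 fits with a lung left out, those without IncPBF lungs 2, 3 or 4 or sham lungs 1, 4 or 5 (limma adjusted p up to 0.0931). None of the 10 pericyte markers was called with the covariate, and 2 had an unadjusted limma p under 0.05. The part of smooth muscle, endothelial and other markers in the changes of the 10 genes was not tested.

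**Figure D4:**
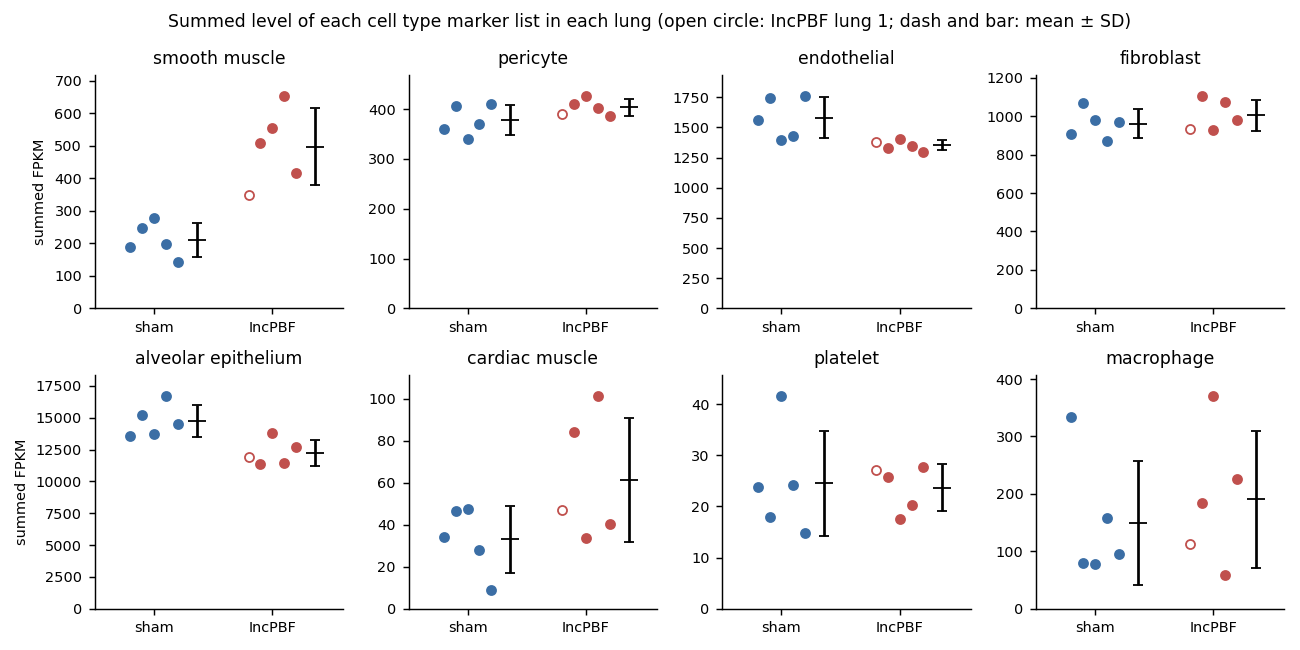
Summed FPKM of each cell type marker list (vertical axes, each starting at 0) in the 5 sham and 5 IncPBF lungs, where points are lungs, the open circle is IncPBF lung 1, and the dash and bar are mean and SD. The smooth muscle sums stand apart, 142 to 278 FPKM in sham against 349 to 653 FPKM in IncPBF, and the other sums overlap. Sums weigh genes by level, so 1 high gene can make up most of a sum.

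Genes with the most similar pattern over the 10 lungs were found by the root mean square difference in centred log2 level, and the likeness is a description. Nearest to Pde5a were Myh10 at 0.0531, Nedd9 at 0.0633 and Tnfrsf19 at 0.0652. Nearest to Ptgis were Adap2 and Igfbp3 at 0.154 each and Ogn at 0.155, so the nearest genes of Ptgis were further off than those of Pde5a. Nearest to Agtr1a were Adap2 at 0.0742, Usp54 at 0.0966 and Il34 at 0.0996, and nearest to Npr3 were Gramd2 at 0.146, Pex11a at 0.151 and Castor1 at 0.163. Adap2 was near both Ptgis and Agtr1a, at 17.1 FPKM in sham and 7.59 FPKM in IncPBF on average.

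Exons of 5 of the genes overlap an opposite-strand gene in GENCODE M21, and whether the counting used strand is not given in the sources used here. The overlaps were 55 bases for Pde5a, 741 for Pde3a, 156 for Ptgis, 295 for Ace and 321 for Npr3. The overlapping genes were at most at 2.96 FPKM (Gm28523, beside Pde3a), and at 1.29 FPKM or less beside the other 4.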

How the data were processed

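Total RNA of the 10 lungs was made into NEBNext Ultra libraries by the authors and sequenced on Illumina instruments. The authors deposited FPKM for 54532 genes, with gene lengths in bases. The submitters' processing notes name Bowtie 0.12.2 and the builds GRCm38, mm10 and hg38 without a role, and the counter and annotation are not given in the sources used here. Coordinates matched GENCODE M21 on GRCm38 for 98.3% of shared genes and for 9 of the 10 genes described, all but Prkg1. Columns of the IncPBF lungs are abbreviated otherwise than their titles, and were matched by number. FPKM times gene length gave whole multiples of 1 fragment (tolerance 0.01 fragments) for 100% of values, and 1 fragment on 1 kb was worth 0.0482 to 0.0580 FPKM.

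The test was limma 3.58.1 in R 4.3.3 (lmFit and eBayes with trend) on log2(FPKM + 0.1), without covariates, for all genes whose mean over the 10 lungs reached 0.5 FPKM. Single values and 5 ratios were compared by exact permutation. Of these, 1 ratio is not reported here but stays in the counts and the adjustment. Scripts were tested on simulated data. Other tools were Python 3.11.15, pandas 2.3.3, numpy 2.4.6 and matplotlib 3.10.9.

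The alternatives were pseudocounts of 1 and 0.01, filters at 1 FPKM or none, quantile normalization, centring on the median or an equal total of each lung, eBayes without trend, the replicate number as a block, log2 Xist as a covariate, the lungs without Xist RNA (under 1 FPKM), limma-voom on the recovered fragments, each lung left out, and, for the ratios, unlogged values.

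The genes and the lists of pathway and marker genes (smooth muscle, pericyte, endothelial, fibroblast, alveolar epithelium, cardiac muscle, platelet and macrophage) were chosen with earlier results of these data known. Named beside the 10 genes are, per pathway list, those among the 3 largest rises and falls that passed, partners in ratios, ligand and cyclooxygenase genes, Xist and Ddx3y, the first 2 genes of marker lists, and the 3 nearest genes by pattern. Npr2, Ptges3, Hpgd, Enpep, Agtrap, Ptprb, Wnt2, Pdgfra, Sftpc, Actc1 and Chil3 were named after their values were seen. Adap2 and the other nearest genes carry no test. Promoters came from RefSeq, GRCm38.p6, and motifs were searched on both strands. The lower coordinate of Prkg1, its far end on the minus strand, is 30564489 in GENCODE M21, and its row was used as deposited.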

Additional observations from a re-analysis of the deposited data

Results flagged for a closer look

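Of 32 groups of 5 lungs examined (the 10 genes, 4 ratios and the sex-linked genes, in each group), 2 held a lung that stood far from the other 4, and chance gives about 1 in 20. Xist was at 0.0144 FPKM in IncPBF lung 1 and at 52.4 to 66.5 FPKM in the other IncPBF lungs. Ddx3y was at 18.6 FPKM in IncPBF lung 1 and at 0 to 0.00926 FPKM in the other IncPBF lungs. None of the 10 genes on its own had such a lung in either group.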

How the results depend on the processing

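With log2 Xist as a covariate, 741 genes were called in place of 4970, 3 of the 10 genes in place of 6, and, by list, 3 of the nitric oxide and cyclic GMP genes in place of 9, 0 natriuretic peptide genes in place of 4 (4 at an unadjusted limma p under 0.05), 1 prostanoid gene and 1 renin-angiotensin gene in place of 8 each, and 1 endothelin gene in place of 2. With the lungs without Xist RNA, 154 genes, 1 of the 10 genes and 1, 0, 1, 0 and 0 genes of these lists were called (4, 4, 6, 6 and 1 at an unadjusted limma p under 0.05). The cause of these losses was not tested. Of the 5 ratios, 4 were called, and 0 with the lungs without Xist RNA, where the smallest exact permutation p possible is 0.167.

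Leaving out each lung in turn gave 3869 to 5234 calls over all genes and 6 to 8 among the 10 genes. By list it gave 7 to 12 for nitric oxide and cyclic GMP, 4 for natriuretic peptides, 8 to 9 for prostanoids, 8 for renin-angiotensin and 2 for endothelin, and 4 to 5 ratios were called. Without sham lung 3, Gucy1b1 and Pde3a were also called and Gucy1a1 turned from 0.03 to -0.027 (limma adjusted p = 0.784). Over all lungs left out in turn, Gucy1a1 ran from -0.027 to 0.071. The other alternatives kept the 6 calls among the 10 genes and their directions. An equal total per lung called 3559 genes higher and 1782 lower, and limma-voom 3653 and 1863, in place of 2480 and 2490, with the median gene at 0.09 in both.

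Same-numbered lungs did not deviate together (correlations of -0.0675 to 0.0854, against -0.197 to 0.216 for other numbers), and 2 of 5 IncPBF lungs correlated best with their own number. These weak correlations give no sign that the numbers pair the lungs but cannot exclude it. With the replicate block, 4872 genes were called and the 6 calls among the 10 genes held. For the ratios, a sign-flip permutation over same-numbered pairs as a replicate block called 0, where the smallest exact p possible is 0.0625. Group and Xist RNA moved together in 4 of 5 IncPBF lungs and cannot be told apart there. Depth limits mainly the natriuretic peptide ligand genes, Ren1, Cma1, Agtr1b, Arg1 and Arg2, and among the 10 genes Ptgir.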

Other observations

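The endothelins are constrictor peptides made by vascular endothelium. Of 7 genes of their list 5 were tested, of which 0 rose and 2 fell, with a median log2 fold change of -0.28. Ece1, which encodes an endothelin-converting enzyme, was at 98.7 ± 8.35 FPKM in sham and 68.0 ± 3.45 FPKM in IncPBF (SD, n = 5 each). It fell by 0.53 on the log2 scale (limma adjusted p = 0.000174) and was at -0.64 with log2 Xist as a covariate (limma adjusted p = 0.0134). Ednrb, the gene of the type B receptor, fell by 0.39 (limma adjusted p = 0.0185), and the groups overlapped. Edn1, the gene of the main vascular endothelin, was at -0.28 (95% interval -0.65 to 0.08, limma adjusted p = 0.220).

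Of 8 alveolar epithelial markers 6 fell and 0 rose, with sums of 13535 to 16692 FPKM in sham and 11324 to 13762 FPKM in IncPBF. These sums are mostly 1 gene, since Sftpc alone gave 10047 of the 11905 FPKM in IncPBF lung 1. With log2 Xist as a covariate 0 of the 8 were called by limma (3 at an unadjusted limma p under 0.05), and 0 with the lungs without Xist RNA (1 at an unadjusted limma p under 0.05). Of the tested markers of cardiac muscle (6), platelets (4) and macrophages (6), limma called 0 at an adjusted p under 0.05, as did limma-voom, and 1, 0 and 1 had an unadjusted limma p under 0.05. The cardiac marker sums were 8.85 to 47.4 FPKM in sham and 33.9 to 101 FPKM in IncPBF. They follow mainly the marker Actc1, which alone gave 44.5 of the 47.2 FPKM in IncPBF lung 1. Myh6, the gene of a cardiac myosin, had 325 and 281 fragments in IncPBF lungs 2 and 4 and at most 66 in any other lung. The platelet sums were 14.9 to 41.6 FPKM in sham and 17.5 to 27.7 FPKM in IncPBF, and the macrophage sums were 78.7 to 334 FPKM in sham and 59.0 to 370 FPKM in IncPBF. Of the 370 FPKM, in IncPBF lung 3, the marker Chil3 alone gave 319.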
